A study of Mus musculus with 4 samples.

Results

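The genes described here are the granzymes Gzma, Gzmb, Gzmc, Gzmd, Gzme and Gzmf and the perforin gene Prf1, 7 of the 31053 mouse genes counted in single cells of an early T-cell culture. They were taken by their symbols from the gene lists of the deposited matrices, whatever their values. All 7 had a row. At least 1 molecule was seen for 6 of them in experiment 1, where Gzmd had none, and for 7 in experiment 2.

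Granzymes are serine proteases that cytotoxic T cells and natural killer (NK) cells store in granules and release onto a target cell. Perforin forms the pores through which they enter, and inside the target granzyme B cleaves after aspartate and sets off caspases, whereas granzyme A cuts after basic residues. Mast cells and some early lymphoid cells also transcribe granzyme genes without perforin. Runx1 and Runx3, the transcription factors perturbed in this study, bind a short DNA motif, and Runx3 is known for its part in the program of cytotoxic T cells.

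The study asked how Runx factors act in the first, Kit-high phase of T-cell development. Marrow progenitors of Bcl2 transgenic mice aged 8 to 10 weeks (Cas9;Bcl2 mice for the deletions) grew on OP9-Dll1, a stromal line that presents a Notch ligand, with IL-7 and Flt3-ligand at 10 ng/ml each. Retroviral vectors were added on day 2. They were MSCV-Runx1-mCherry, with MSCV-empty-mCherry as its control, and harvest on days 4 and 6, or E42 vectors with 3 pairs of guides each against Runx1 (hNGFR) and Runx3 (mTurquoise), or control guides against luciferase, with harvest on days 5 and 8. Live Lineage-negative CD45+ cells with mCherry, or with mTurquoise and hNGFR, were sorted, marked with hashtag antibodies (DNA-barcoded antibodies that record a cell's sample) and pooled into 2 droplet experiments, labelled as 4 to 5 and 4 to 8 days of culture. All groups shared the Bcl2 transgene, which keeps cells alive, and all had been transduced, so neither was a variable here.

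The deposited tag tables name 8 hashtags per experiment but no condition, and which hashtag held which vector, guide or day was not analysed here. Each hashtag was therefore described as an unlabelled sample, with no test between conditions and no replicates. Levels are molecules (unique molecular identifiers, UMIs) of a gene per 1000000 UMIs of the same cells (CPM), and brackets give exact 95% intervals that cover counting error only. Such 3′ tag counts carry no gene length, so the members' levels are compared within a gene and not ranked between genes.

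Experiment 1 left 8797 single-tagged cells with 221139979 UMIs and experiment 2 left 8335 with 232564152, at medians of 24753 and 26338 UMIs per cell. Hashtags held 691 to 1291 cells in experiment 1 and 855 to 1312 in experiment 2. The 2 experiments shared 39 barcode sequences. Kit, the receptor that defines the labelled phase, had a UMI in 71.8% of cells of experiment 1 and 51.9% of experiment 2, and Cd4 in 0.171% and 0.156%. Clusters led by granulocyte, mast cell, dendritic, B-cell and stromal genes were present as well, so the pools held more than the labelled cell type. Cells were grouped by clustering without the 7 members, and the group names rest on rebuilt clusters and fixed marker lists, not on an annotation by the study.

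The promoter windows of the 7 genes are described first because every one of them holds the letters TGTGGT, the core of a Runx motif, or their reverse ACCACA. Of 32851 RefSeq windows of the same length (GRCm38.p6, 250 bases before to 50 after a start), 16.8% hold it and 1.81% hold it at 2 or more places, as Gzmb, Gzmc, Gzmd, Gzme and Gzmf do. The windows below, from Gzma, Gzmb, Gzmc, Gzmd and Prf1, show where those letters lie, written 5′ to 3′ on the gene's strand with the Runx letters in capitals. They come from chr13:113100932-113101231 for Gzma, chr14:56262285-56262584 for Gzmb, chr14:56234608-56234907 for Gzmc and chr14:56132544-56132843 for Gzmd, all on the minus strand, and from chr10:61297586-61297885 on the plus strand for Prf1.
Gzma: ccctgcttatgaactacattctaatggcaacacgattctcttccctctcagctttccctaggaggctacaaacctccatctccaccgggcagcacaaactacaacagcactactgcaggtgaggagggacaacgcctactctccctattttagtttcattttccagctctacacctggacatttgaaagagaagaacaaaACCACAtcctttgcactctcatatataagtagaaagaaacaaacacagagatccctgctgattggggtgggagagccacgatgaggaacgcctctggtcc
Gzmb: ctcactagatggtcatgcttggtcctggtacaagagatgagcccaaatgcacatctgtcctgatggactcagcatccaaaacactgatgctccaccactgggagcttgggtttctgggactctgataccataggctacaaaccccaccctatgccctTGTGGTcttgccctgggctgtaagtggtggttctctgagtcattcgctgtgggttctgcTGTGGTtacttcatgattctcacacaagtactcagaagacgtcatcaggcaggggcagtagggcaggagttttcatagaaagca
Gzmc: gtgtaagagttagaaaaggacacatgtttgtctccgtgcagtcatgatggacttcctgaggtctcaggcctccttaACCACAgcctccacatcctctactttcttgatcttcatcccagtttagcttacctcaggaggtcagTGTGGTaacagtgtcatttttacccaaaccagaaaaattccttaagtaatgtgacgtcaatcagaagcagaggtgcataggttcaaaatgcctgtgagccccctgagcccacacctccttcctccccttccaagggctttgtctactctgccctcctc
Gzmd: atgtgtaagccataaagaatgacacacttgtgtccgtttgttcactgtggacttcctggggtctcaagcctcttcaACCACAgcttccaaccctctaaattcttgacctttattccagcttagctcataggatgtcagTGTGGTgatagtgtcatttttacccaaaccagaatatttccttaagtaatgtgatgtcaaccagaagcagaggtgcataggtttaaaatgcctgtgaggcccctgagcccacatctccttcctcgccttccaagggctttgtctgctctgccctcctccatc
Prf1: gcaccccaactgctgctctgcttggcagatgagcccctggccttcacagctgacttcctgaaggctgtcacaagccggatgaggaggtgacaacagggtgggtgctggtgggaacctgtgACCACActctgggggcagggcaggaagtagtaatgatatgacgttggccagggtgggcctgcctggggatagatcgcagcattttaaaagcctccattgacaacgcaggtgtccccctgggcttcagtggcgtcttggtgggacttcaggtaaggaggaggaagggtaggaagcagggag

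Counted in bases before the start, the Runx letters lie at 50 to 45 in Gzma, at 130 to 125 in Prf1, at 93 to 88 and 34 to 29 in Gzmb, and at 174 to 169 and 108 to 103 in Gzmc. Gzmd has them at 174 to 169 and 112 to 107, Gzme at 175 to 170 and 113 to 108, and Gzmf at 195 to 190 and 133 to 128. The Gzmc window, chr14:56234608-56234907, lies inside the listed span of the gene, chr14:56231397-56241647. Its start is therefore not the outer end of that span. Gzmb, Gzmc, Gzmd, Gzme and Gzmf sit with Gzmg and Gzmn in 1 cluster of 7 granzyme genes, 144.7 kb long, at chr14:56117619-56262334, whereas Gzma lies at chr13:113093824-113100981 and Prf1 at chr10:61297751-61304684. In end-to-end alignments, the windows of Gzmd and Gzme were identical in 93.4% of columns, gap columns counted, and those of Gzmc and Gzmd in 83.4%. Pairs among Gzmc, Gzmd, Gzme and Gzmf ran from 74.6% to 93.4%, so the Runx letters of these windows are not independent matches. Gzmb was identical to Gzmc, Gzmd, Gzme and Gzmf in 46.8% to 51.7% of columns. That is near the 49.0% of Gzma and Prf1, which lie on different chromosomes. The T-box letters TCACACCT, searched on both strands, are in none of the 7 windows and in 1.28% of all, and the STAT5 pattern TTCNNNGAA is in that of Gzmb alone and in 8.30% of all. A match describes letters only, and no binding was measured here.

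Gzma was the granzyme that most cells carried. It had a UMI in 6022 of 8797 cells (68.5%) of experiment 1 and in 5336 of 8335 (64.0%) of experiment 2, with up to 571 and 860 UMIs in a cell. The summed level was 1241 CPM (1236 to 1245) in experiment 1 and 1150.1 CPM (1146 to 1154) in experiment 2, a ratio of 0.927 (0.922 to 0.932). Its UMIs were spread over many cells, since 821 cells of experiment 1 and 618 of experiment 2 were needed to hold 50% of them.

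T-lineage-like cells, called from markers such as Thy1, Il2ra, Cd3g and Bcl11b, had the highest Gzma level of the named groups, at 3056 CPM in experiment 1 (1706 cells) and 2869 CPM in experiment 2 (2895 cells). They held 45.6% and 70.4% of all Gzma UMIs, in 19.4% and 34.7% of the cells. Unnamed clusters held 48.3% of the Gzma UMIs of experiment 1 and 18.7% of experiment 2, and the clusters led by Pgam2 were unnamed in experiment 1 but T-lineage-like in experiment 2, so the shares cover unlike sets of cells. A cluster marked by the NK receptor genes Klrk1 and Klrc1 had 2220.2 and 2313 CPM (170 and 199 cells). Its leading genes held 4 and 5 NK markers but also 6 and 5 of other innate lymphoid cells, such as Icos, Il18r1 and Id2. It therefore met no single class name and is called by its genes. Cells with the T-cell genes Cd8b1 and Trac, a cluster seen in experiment 2, had 1285 CPM (161 cells).

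Early progenitor-like cells, called from markers such as Cd34, Lmo2 and Mef2c, stood at 307 and 205 CPM of Gzma in experiments 1 and 2. Levels in cell types that should lack the gene gave the background: stromal-like cells of experiment 2 had 112 CPM (207 cells), granulocyte or monocyte-like cells 22.6 and 64.0 CPM, mast cell or basophil-like cells 17.4 and 11.9 CPM, and B-lineage-like cells 14.5 CPM. A UMI was seen in 45.4% of the early progenitor-like cells of experiment 2 (median 27464 UMIs per cell) and in 55.1% of the deeper stromal-like cells (median 50349). With each cell thinned to 5000 UMIs these shares became 23.4% and 14.1%, against 87.5% in the T-lineage-like cells. At equal depth the progenitor share of experiment 2 thus lay above the stromal one, and the T-lineage-like share far above both. The stromal-like level was uneven, with 5 or more Gzma UMIs in 32 of the 207 cells and up to 149 in a cell. The source of these UMIs was not tested. In experiment 1 the stromal-like group was only 14 cells, which had 325 CPM of Gzma with 106 of their 219 UMIs in 1 cell, so no such comparison was made there. A low-depth cluster in each experiment (197 and 70 cells, medians 3103 and 2502 UMIs) had 286 and 300 CPM of Gzma. That was against 307 and 205 CPM in early progenitor-like cells. It met no class name, and the kind of its cells was not tested.

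The early progenitor-like cells of experiment 2 were not uniform for Gzma. Their 3 clusters had 157 CPM (395 cells, led by Cd34 and Mef2c), 393 CPM (907 cells, led by Hbb-bt and Ccl5) and 13.9 CPM (614 cells, led by Egfl7 and Cox4i2). The last, at the level of the B-lineage-like cells, drew 363 of its cells from hashtag 6 and 225 from hashtag 8.

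**Figure D1:**
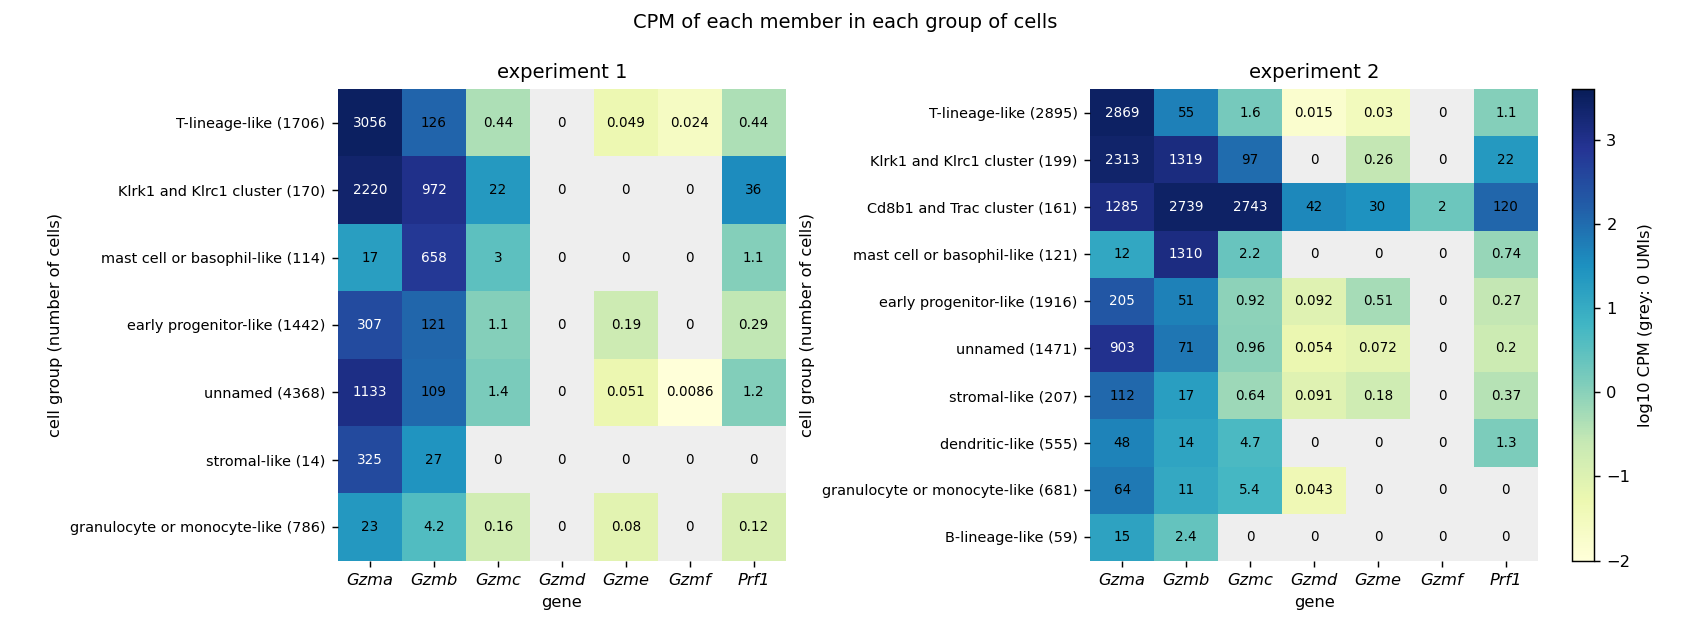
Levels of the 7 genes by cell group in experiment 1 (left) and experiment 2 (right), in CPM over the summed cells of a group; colour is on a log10 scale, grey marks 0 UMIs, each square prints its CPM, and the low-depth cluster is left out. Gzma peaks in T-lineage-like cells (3056 and 2869 CPM), while Gzmc and Prf1 peak in the Cd8b1 and Trac cluster of experiment 2 (2743 and 119.6 CPM).

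Within experiment 1, Gzma in hashtags 1 to 8 stood at 664, 563, 1816, 1854, 2049.7, 1763, 630.5 and 741 CPM. The samples fell into 4 high hashtags (3 to 6) and 4 low ones (1, 2, 7 and 8), with no value between 741 and 1763 CPM. The share of cells with a Gzma UMI ran the same way, from 40.0% in hashtag 7 to 91.6% in hashtag 4, or from 27.2% to 85.1% after thinning.

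Experiment 2 gave 433, 1028, 1033, 1844, 1142, 298, 2262 and 1677 CPM of Gzma in the same order of hashtags. Hashtags 4, 7 and 8 were high and hashtags 1 and 6 low, and the counting intervals of hashtags 2 and 3 overlapped. In bulk sums of this kind, fewer Gzma cells and less Gzma per cell cannot be told apart, so the level was also read within a cell group.

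Among T-lineage-like cells, Gzma per hashtag ran from 1449.6 CPM (hashtag 7) to 4079 CPM (hashtag 5) in experiment 1 and from 1381 CPM (hashtag 2) to 6660.0 CPM (hashtag 5) in experiment 2. Hashtag 1 of experiment 2 was second to lowest over all its cells (433 CPM) yet had 4376 CPM of Gzma in its 72 T-lineage-like cells. Hashtag 2 had the largest number of T-lineage-like cells, 747, at 1381 CPM of Gzma.

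The clusters behind this class differed between samples. Those led by Pgam2 and Gsn held most T-lineage-like cells of hashtags 2 and 4 and had 2126 and 1658 CPM of Gzma, and those led by Gm4632 and Sh2d1a held most of the others and had 3711 and 3803 CPM. Within the larger Pgam2 cluster, Gzma was 1377 CPM in 401 cells of hashtag 2 and 3125 CPM in 396 cells of hashtag 4. Hashtags 2 and 4 therefore differed in Gzma inside a cluster as well as over all cells. In experiment 1 the 2 clusters led by Pgam2 met no class name, and had 2089 and 2435 CPM of Gzma in 796 and 862 cells.

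**Figure D2:**
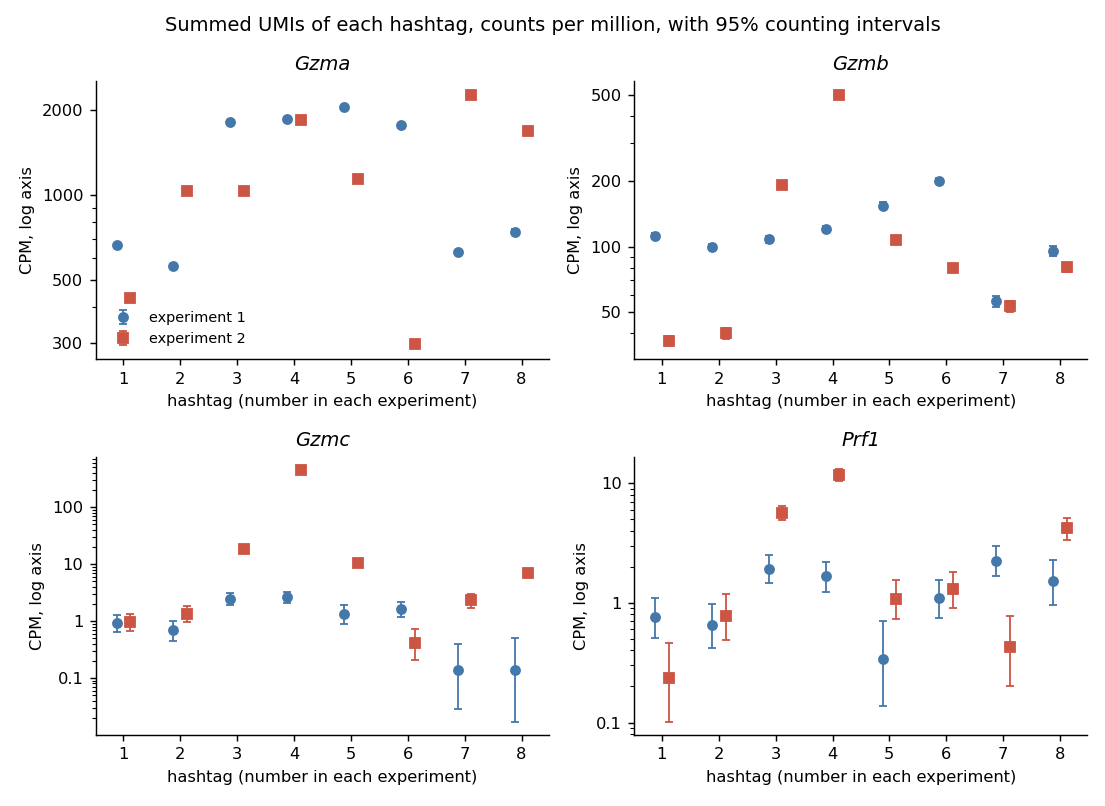
Levels of Gzma, Gzmb, Gzmc and Prf1 in each of the 8 hashtags of experiment 1 and experiment 2, in CPM on a log axis. Points are hashtags and lines their exact 95% counting intervals. Gzma stays within 298 to 2262 CPM in experiment 2, while Gzmc runs from 0.412 to 453 CPM with hashtag 4 on top.

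Genes whose cell-by-cell levels followed Gzma most closely were the LIM-domain gene Crip1 (Pearson r of log-normalised levels 0.727 over 8797 cells and 0.704 over 8335), 1500009L16Rik (0.593 and 0.643) and, in experiment 2, the T-lineage surface gene Thy1 (0.640). Cells with 5 or more Gzma UMIs, called Gzma carriers, numbered 4393 (49.9%) and 3742 (44.9%). Cd3g, a chain of the T-cell receptor complex, was 37.0-fold higher in carriers than in other cells of experiment 1 (151 against 4.09 CPM) and 17.4-fold in experiment 2, and Bcl11b, a T-lineage commitment factor, 20.2-fold in experiment 2. These correlations pool cells that differ in type and depth and stand as descriptions.

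Gzmb, the caspase-activating protease, was carried by several unlike kinds of cell. It had a UMI in 4406 cells of experiment 1 (50.1%) and 2710 of experiment 2 (32.5%), yet its summed level was 119 CPM (118 to 121) and 137 CPM (136 to 139), a ratio of 1.15 (1.13 to 1.17). The UMIs were spread over fewer cells in experiment 2, where 92 cells held 50% of them, against 608 in experiment 1.

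The Cd8b1 and Trac cluster had the highest Gzmb level, 2739 CPM, and its 161 cells held 39.0% of the Gzmb UMIs of experiment 2. Next came the Klrk1 and Klrc1 cluster (972 and 1319 CPM) and the mast cell or basophil-like cells (658 and 1309.5 CPM). The latter were named from leading genes such as Prss34, Mcpt4 and Ms4a2, each held by a minority of the cells. In experiment 1 these had a UMI in 12, 12 and 42 of 114 cells, against 97 for Gata2. In experiment 2 they had a UMI in 48, 11 and 56 of 121 cells, against 108 for Gata2. The group was thus not uniform for its markers. A Gzmb UMI was seen in 84.3% of the 121 mast cell or basophil-like cells of experiment 2, and in 76.5% after thinning. Mast cell protease genes of the Mcpt family are known neighbours of Gzmb on mouse chromosome 14.

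T-lineage-like cells had a lower Gzmb level, 126 CPM in experiment 1 and 54.8 CPM in experiment 2, and early progenitor-like cells had 121 and 51.2 CPM, close to them in each experiment. The background was 4.21 and 11.5 CPM in granulocyte or monocyte-like cells and 17.4 CPM in the stromal-like cells of experiment 2. The thinned share of cells with a Gzmb UMI was 28.7% and 13.3% in T-lineage-like cells, against 2.06% and 1.08% in granulocyte or monocyte-like cells, whose median depth was 30438 and 34779 UMIs. Over the summed cells of each group, low Gzmb in the T and progenitor groups was thus above these background levels. It was not above them in every hashtag of experiment 2. The low-depth cluster, not used as background, had 111 and 56.6 CPM of Gzmb, close to the T-lineage-like and early progenitor-like levels.

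The 8 hashtags of experiment 1 had 112, 99.9, 108, 121, 154, 202, 56.1 and 95.6 CPM of Gzmb. Hashtag 6 was highest and hashtag 7 lowest, a ratio of 3.59 (3.38 to 3.82), and without the Klrk1 and Klrc1 cluster hashtag 7 fell to 30.1 CPM. Experiment 2 had 36.8, 40.0, 193, 497, 108, 80.1, 53.2 and 80.5 CPM. Hashtag 4 stood above all others and hashtag 3 came next. Leaving out the Cd8b1 and Trac cluster changed hashtag 4 to 165 CPM and hashtag 3 to 137 CPM, still the 2 highest. Leaving out the Klrk1 and Klrc1 cluster as well changed hashtag 6 from 76.8 to 8.29 CPM and hashtag 8 from 71.9 to 22.8 CPM of Gzmb.

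Within the mast cell or basophil-like cells of experiment 2, Gzmb was 1096 CPM in the 50 cells of hashtag 3 and 2294 CPM in the 44 of hashtag 4, and no other hashtag had more than 9 such cells. In T-lineage-like cells it ran from 39.4 to 185 CPM in experiment 1 and from 12.8 CPM (hashtag 6) to 111 CPM (hashtag 3) in experiment 2. Hashtags 3, 4 and 5 had the 3 highest Gzmb values in that group, and hashtags 6, 7 and 8 the 3 lowest. The 12.8 CPM of hashtag 6 lay below the 17.4 CPM of stromal-like cells of experiment 2. It was near the 11.5 CPM of the granulocyte or monocyte-like cells.

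The genes most like Gzmb cell by cell were Scin, an actin-severing protein (r = 0.412), in experiment 1, and Il2rb, the shared IL-2 and IL-15 receptor chain (0.438), Tnfrsf9 (0.411) and Klrc1 (0.388) in experiment 2. Among the 979 Gzmb carriers of experiment 2, the mast cell protease Mcpt1 was 632-fold and the cytokine gene Ifng 296-fold above the other cells, and Cd8b1 25.5-fold. In the 1691 carriers of experiment 1 the largest fold was 2.2, for Scin, followed by Cd160 (1.78) and the basophil protease Mcpt8 (1.76).

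Gzma and Gzmb were in part carried by different cells. With 5 UMIs as the minimum for each, 1180 of 1691 Gzmb carriers of experiment 1 (69.8%) were also Gzma carriers, and 600 of 979 (61.3%) in experiment 2, against 49.9% and 44.9% of all cells. Among T-lineage-like cells of experiment 1, 1106 carried Gzma alone, 30 Gzmb alone and 325 both. Those of experiment 2 were mostly Gzma-only: 2262 carried Gzma alone, 17 Gzmb alone and 185 both. Most Gzmb carriers of this group thus carried Gzma as well. Mast cell or basophil-like cells of experiment 2 were mostly Gzmb-only, with 84 carrying Gzmb alone, 1 Gzma alone and none both. The Klrk1 and Klrc1 cluster of experiment 2 was mixed (53, 61 and 67 cells of Gzma alone, Gzmb alone and both). In the Cd8b1 and Trac cluster 53 carried Gzmb alone, 55 both and 4 Gzma alone.

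**Figure D3:**
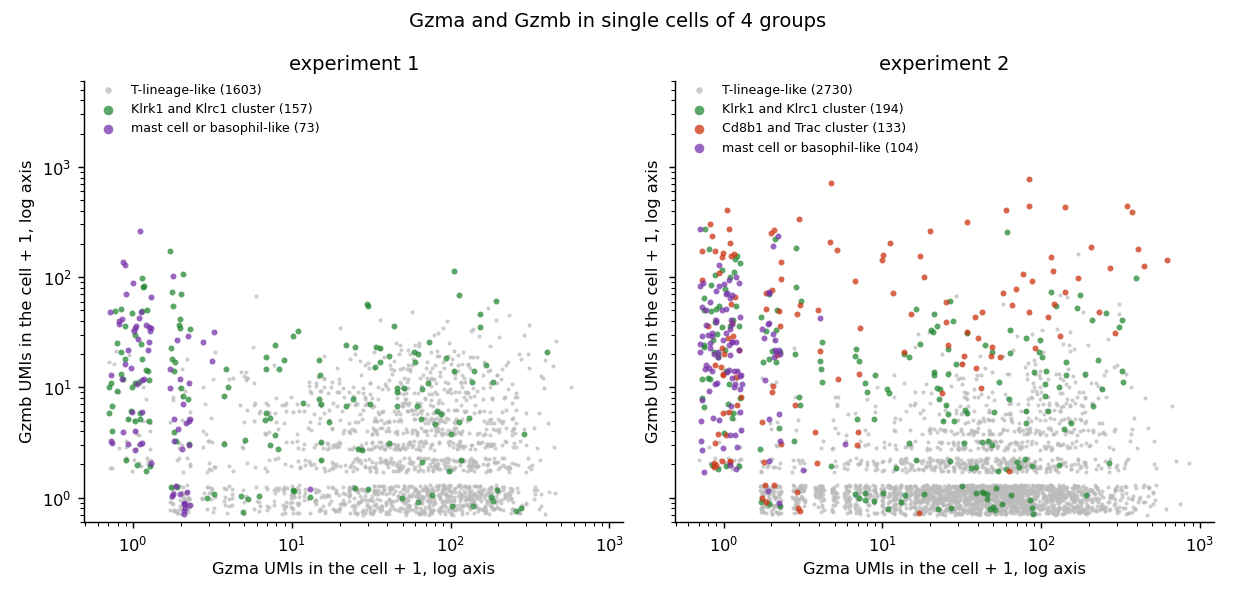
Gzma against Gzmb UMIs in single cells of 4 groups (T-lineage-like, Klrk1 and Klrc1 cluster, Cd8b1 and Trac cluster, mast cell or basophil-like), on log axes of UMIs + 1 with slight jitter; each point is a cell with at least 1 UMI of either gene. T-lineage-like cells extend along the Gzma axis and mast cell or basophil-like cells along the Gzmb axis, while the other groups hold cells high in both.

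Gzmc, a granzyme of the Gzmb gene cluster, was scarce in experiment 1 and came from few cells in experiment 2. The sums were 292 UMIs in 212 cells (1.32 CPM, 1.17 to 1.48) and 13215 UMIs in 356 cells (56.8 CPM, 55.9 to 57.8), a ratio of 43.0 (38.3 to 48.5). The richest cell had 9 UMIs of Gzmc in experiment 1 and 1195 in experiment 2. Only 12 cells of experiment 2 held 50% of its Gzmc UMIs, and the top 10 held 46.2%.

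Gzmc UMIs of experiment 2 came mainly from the Cd8b1 and Trac cluster. These 161 cells, 1.93% of the experiment, held 94.2% of its Gzmc UMIs at 2743 CPM, and 103 of them (64.0%) had a UMI, 57.6% after thinning. Gzmc in the Klrk1 and Klrc1 cluster reached 96.6 CPM, and in that of experiment 1 it was 21.7 CPM. Of the 292 Gzmc UMIs of experiment 1, the Klrk1 and Klrc1 cluster held 20.5% and unnamed clusters 57.2%. T-lineage-like cells of experiment 2 had 1.57 CPM of Gzmc, with a UMI in 2.14% of cells (0.560% thinned). Stromal-like cells had 0.640 CPM, with a UMI in 3.38% (none thinned), at medians of 21537 and 50349 UMIs, so both groups lay near the level of single stray molecules.

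Of the 116 Gzmc carriers of experiment 2 (5 or more UMIs), 90 were in the Cd8b1 and Trac cluster, 20 in the Klrk1 and Klrc1 cluster, 3 were T-lineage-like, 2 dendritic-like and 1 granulocyte or monocyte-like. The granulocyte or monocyte-like carrier also had UMIs of both Cd8b1 and Trac. The 7 carriers of experiment 1 were 5 cells of the Klrk1 and Klrc1 cluster and 2 in unnamed clusters. The genes with the highest fold in the 116 carriers over all other cells were Zbtb32 (109-fold), Cd8b1 (109-fold) and the chemokine genes Xcl1 (100.2-fold) and Ccl4 (80.1-fold), followed by Trac (64.9-fold). By cell-to-cell likeness over 8335 cells the leading genes were Cd8b1 (r = 0.650), Xcl1 (0.611) and Trac (0.584), whereas in experiment 1 no gene reached 0.3 with Gzmc.

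The Cd8b1 and Trac cluster does not match the labelled cell type. How its mRNA relates to the surface proteins gated in the Lineage-negative sort was not tested. All 161 cells had a UMI of Cd3d, Cd3g and Trac, 159 of Cd3e, 154 of Cd8a and 150 of Cd8b1, and none of Cd4. It was led by Cd8b1, Ifng, Trac, Xcl1 and Ccl4 and also held the NK markers Il2rb, Klrc1, Klrk1 and Klrd1, so it met no single class name and is called by its genes. Cells with both Cd8b1 and Trac numbered 158 in experiment 2 and 4 in experiment 1, and the 4 sat in the Klrk1 and Klrc1 cluster.

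The hashtags of experiment 1 had 35, 25, 72, 82, 27, 46, 3 and 2 Gzmc UMIs, or 0.919, 0.682, 2.43, 2.62, 1.32, 1.63, 0.135 and 0.138 CPM. Hashtags 3 and 4 were highest and 7 and 8 lowest, with a ratio of 19.3 (6.39 to 95.8) between the extremes. Those of experiment 2 had 33, 38, 781, 11844, 298, 11, 54 and 156 UMIs, or 0.962, 1.34, 18.3, 453, 10.4, 0.412, 2.29 and 7.00 CPM. Hashtag 4 exceeded the next, hashtag 3, by far.

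The Cd8b1 and Trac cells were most numerous in the 2 hashtags with the most Gzmc. Hashtag 4 held 105 of the 161, hashtag 3 had 35, hashtag 6 had 10, hashtag 5 had 6, hashtag 8 had 3, hashtags 1 and 7 had 1 each and hashtag 2 none. Within them, Gzmc was 4325 CPM in hashtag 4 and 511 CPM in hashtag 3, while the 10 cells of hashtag 6 had no Gzmc UMI. Hashtag 4 was thus higher in the number of such cells and in Gzmc per cell.

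Without the Cd8b1 and Trac cluster, Gzmc in hashtags 1 to 8 of experiment 2 became 0.964, 1.34, 3.86, 10.1, 7.30, 0.415, 2.30 and 0.947 CPM, and hashtag 4 was still highest. In the 29 Klrk1 and Klrc1 cells of hashtag 4 the level was 426 CPM, and no other hashtag exceeded 192 CPM in that cluster. Without both clusters hashtag 4 fell to 2.86 CPM of Gzmc and hashtag 5, at 6.52 CPM, was highest. That rank rested on 1 cell of a granulocyte or monocyte-like cluster with 117 Gzmc UMIs, without which hashtag 5 had 2.34 CPM. This cell also had UMIs of both Cd8b1 and Trac, so leaving out clusters did not leave out every cell with these 2 genes. The part of these cells' number, type and origin in the difference between hashtags was not tested.

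**Figure D4:**
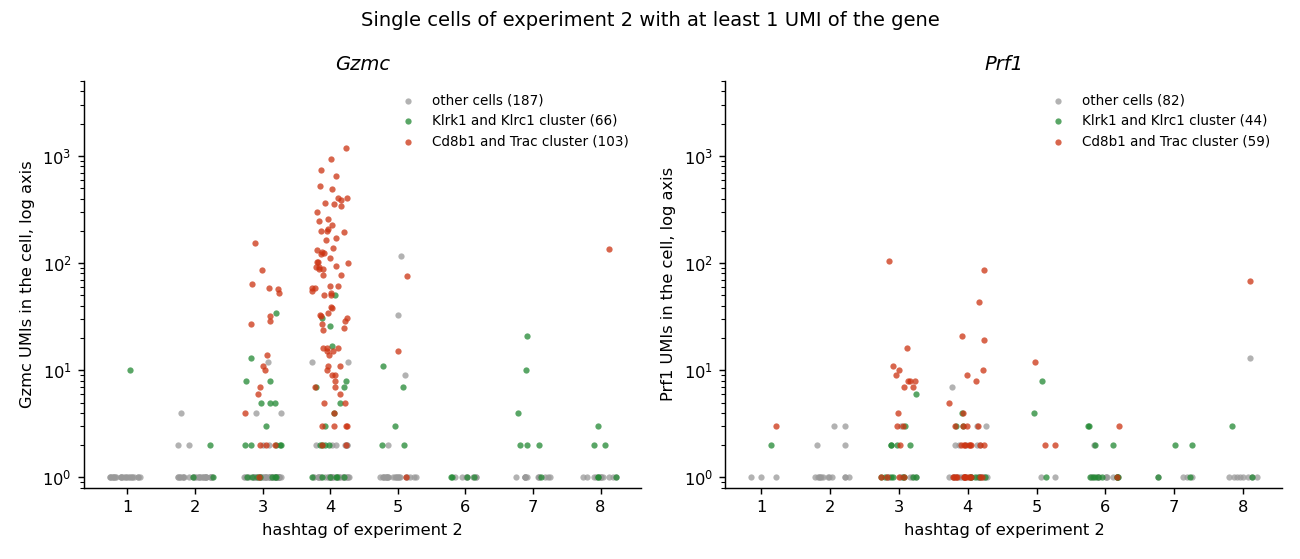
UMIs of Gzmc (left) and Prf1 (right) per cell by hashtag in experiment 2, on a log axis, for cells with at least 1 UMI; colours mark the Cd8b1 and Trac cluster, the Klrk1 and Klrc1 cluster and all other cells. The 90 Cd8b1 and Trac cells with 5 or more Gzmc UMIs include 73 of hashtag 4, and the richest has 1195 UMIs.

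Gzmd, Gzme and Gzmf, the closest relatives of Gzmc in the same gene cluster, came from a handful of cells. Gzmd had no UMI in experiment 1, where the exact 95% upper limit was 0.0167 CPM. It had 202 UMIs in 12 cells of experiment 2 (0.869 CPM). That was at least 51.6-fold higher by the exact lower limit and 64.0-fold against a floor of 3 counts. Gzme had 16 UMIs in 14 cells of experiment 1 and 174 in 29 cells of experiment 2. Gzmf had 2 UMIs in experiment 1 and 9 in experiment 2. Of the UMIs of experiment 2, the Cd8b1 and Trac cluster held 94.6% for Gzmd, 78.2% for Gzme and all 9 for Gzmf.

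Hashtag 4 led for each of them. Its Gzmd count was 191 of 202 UMIs (7.31 CPM), its Gzme count 133 of 174 (5.09 CPM) and its Gzmf count 9 of 9 (0.344 CPM). Hashtag 5 was next for Gzmd (5 UMIs) and Gzme (18 UMIs), and no other hashtag had more than 8 UMIs of either.

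The same 4 cells had 5 or more UMIs of both Gzmd and Gzme, and none of them had a UMI of Gzma. The richest, a Cd8b1 and Trac cell of hashtag 4, had 91 Gzmd, 80 Gzme, 201 Gzmc, 237 Gzmb and 19 Prf1 UMIs among 32513. The second, of the same cluster and hashtag, had 80 Gzmd, 27 Gzme, 355 Gzmc and 65 Gzmb UMIs and 6 of the 9 Gzmf UMIs. A cell of the same cluster and hashtag followed with 18 Gzmd, 24 Gzme, 32 Gzmc and 14 Gzmb UMIs. The fourth was an early progenitor-like cell of hashtag 5 with 5 Gzmd, 16 Gzme and 40 Gzmb UMIs and no Gzmc. Gzmd levels followed Ccl4 (r = 0.331) and Hspb1 (0.301) over cells, values that rest on those few cells. These genes are close copies of each other, and how reads that fit more than 1 of them were counted is not given in the sources used here, so the split between Gzmd, Gzme and Gzmf is uncertain.

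Prf1, the pore former that cytotoxic delivery needs, was seen in few cells. It had 272 UMIs in 183 cells of experiment 1 (1.23 CPM, 1.09 to 1.39) and 744 UMIs in 185 cells of experiment 2 (3.20 CPM, 2.97 to 3.44), a ratio of 2.60 (2.26 to 3.00). This direction rested on the Cd8b1 and Trac cluster, without which the ratio was 0.717, and it was 0.668 without the Klrk1 and Klrc1 cluster too. The share of cells with a UMI was alike, 2.08% and 2.22%, while the richest cell had 19 UMIs of Prf1 in experiment 1 and 105 in experiment 2. In experiment 2, 8 cells held 50% of the Prf1 UMIs, against 47 in experiment 1.

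Prf1 was highest in the Cd8b1 and Trac cluster, at 119.6 CPM with a UMI in 59 of 161 cells, and these held 73.0% of its UMIs in experiment 2. The Klrk1 and Klrc1 cluster followed at 36.2 CPM in experiment 1 and 22.0 CPM in experiment 2, with a UMI in 22.4% and 22.1% of cells. T-lineage-like cells, where Gzma was high, had 0.440 and 1.10 CPM of Prf1, and mast cell or basophil-like cells, where Gzmb was high, had 1.13 and 0.742 CPM from 3 and 2 UMIs. In both groups the granzyme mRNA was thus present with little or no perforin mRNA at this depth. In experiment 1 an unnamed cluster led by Htra3 and Ccl5 had 4.21 CPM of Prf1 in 611 cells, with Gzma at 169 CPM.

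In hashtags 1 to 8 Prf1 had 29, 24, 57, 52, 7, 31, 50 and 22 UMIs in experiment 1, which is 0.762, 0.655, 1.92, 1.66, 0.342, 1.10, 2.25 and 1.52 CPM. Hashtag 7 was highest and hashtag 5 lowest, a ratio of 6.59 (2.97 to 17.2), so the order was not that of Gzma, for which hashtag 5 was highest. Experiment 2 had 8, 22, 241, 304, 31, 35, 10 and 93 UMIs of Prf1, or 0.233, 0.777, 5.65, 11.6, 1.08, 1.31, 0.425 and 4.18 CPM. Hashtags 4, 3 and 8 were high and hashtag 1 lowest, with a ratio of 49.8 (25.0 to 117). In hashtag 8 the 5 richest cells held 92.5% of the Prf1 UMIs, and 1 of them had 68.

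Without the Cd8b1 and Trac cluster the Prf1 levels of experiment 2 became 0.146, 0.777, 0.868, 2.43, 0.529, 1.17, 0.425 and 1.13 CPM, hashtag 4 remaining highest. Inside that cluster Prf1 was 169 CPM in hashtag 3 and 92.0 CPM in hashtag 4, and 665 CPM in the 3 cells of hashtag 8, all of it from 1 cell with 68 UMIs. Without the richest cell of hashtag 3, which had 105 UMIs, its level was 85.8 CPM, so no order of hashtags is read from these values. The genes most like Prf1 over cells were Ifng (r = 0.488), Zbtb32 (0.474) and Xcl1 (0.472) in experiment 2, and none reached 0.3 in experiment 1. In its 24 carriers of experiment 2, Ifng was 317-fold, Ccl4 217-fold and Ccl3 153-fold above the other cells. Of these 24, 23 were Gzmb carriers, 14 Gzmc carriers and 11 Gzma carriers.

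The members were carried together to different extents. Of the 116 Gzmc carriers of experiment 2, 87.1% carried Gzmb, 71 (61.2%) Gzma and 14 (12.1%) Prf1. Cell-to-cell correlations in experiment 2 were 0.459 between Gzmb and Gzmc, 0.347 between Gzmc and Prf1 and 0.30 between Gzmb and Prf1, and 0.106 between Gzma and Gzmb, over 8335 cells that share a library and differ in depth.

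**Figure D5:**
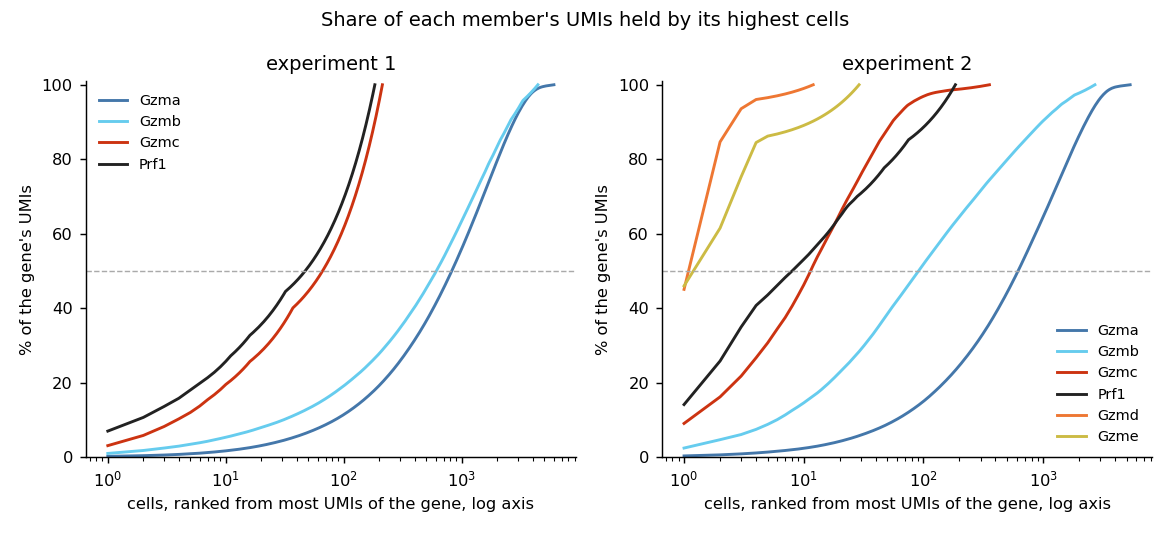
Cumulative percent of a gene's UMIs (vertical) held by its richest cells, ranked from the highest down (horizontal, log scale). Gzma, Gzmb, Gzmc and Prf1 are drawn for both experiments, and Gzmd and Gzme for experiment 2 only. In experiment 2, 50% of the UMIs were reached with 2 cells for Gzmd, 8 for Prf1, 12 for Gzmc, 92 for Gzmb and 618 for Gzma.

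Set against all genes, the members differed between hashtags as follows. A gene with at least 200 UMIs was called when its highest hashtag had at least 4 times the CPM of its lowest, and 6.88% of 11094 genes were called in experiment 1 and 13.5% of 11691 in experiment 2. In experiment 1, 2 of the 4 members tested were called, Gzmc and Prf1, and Gzma at 3.64 (3.58 to 3.70) and Gzmb stayed under the threshold. All 5 members tested in experiment 2 were called: Gzma at 7.60 (7.42 to 7.78), Gzmb at 13.5 (12.8 to 14.3), Gzmc at 1101 (615 to 2206), Gzmd at 104 against a floor of 3 counts (exact lower limit 55.6) and Prf1. Gzme and Gzmf had too few UMIs to be tested. Without the Cd8b1 and Trac cluster the ratios of experiment 2 were 7.54 for Gzma, 4.50 for Gzmb, 24.4 for Gzmc, 2.44 for Gzmd and 16.6 for Prf1. Without the Klrk1 and Klrc1 cluster as well they were 18.9 for Gzmb, 24.0 for Gzmc and 20.7 for Prf1. The Gzmb ratio was thus above that over all cells. The 2.44 for Gzmd and the 20.7 for Prf1 come from fewer than 200 UMIs and were not tested. The 24.0 for Gzmc rests on 1 cell of hashtag 5 with 117 UMIs, which also had Cd8b1 and Trac UMIs. Without that cell the hashtag had 2.34 CPM.

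Between the experiments, 7.44% of 12424 genes reached a 2-fold higher level in experiment 2 and 0.604% a 2-fold lower one. Gzmc, Gzmd and Prf1, 3 of the 5 members tested, were higher by this rule and none was lower. Without the Cd8b1 and Trac cluster the ratio was 2.53 for Gzmc, and without hashtag 4 of experiment 2 the number of members called was 1. Culture time, the mix of hashtags and the experiment cannot be told apart here.

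Other genes of the cytotoxic granule were read as a list of 29, chosen with results of these data known. Of these, 20 could be tested in experiment 1, where 3 were called (15%, median ratio 1.94), and 22 in experiment 2, where 6 were called (27.3%, median 2.63), against medians of 1.38 and 1.49 over all genes tested. The list holds the granzyme neighbours Gzmg and Gzmn, which had at most 4 UMIs in an experiment, and Gzmk and Gzmm, which had 31 to 83.

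Genes that package and release granules varied to different degrees between hashtags. The lowest ratios were 1.17 and 1.20 for Srgn, the proteoglycan on which granzymes are stored, 1.12 and 1.10 for Stxbp2 and 1.19 and 1.29 for Unc13d, which prime granules for fusion, and 1.22 and 1.34 for the granule membrane gene Lamp1. Higher ones were 1.86 and 2.48 for Nkg7, 1.44 and 2.07 for Rab27a and 2.02 and 1.51 for Lyst, and the fusion protein gene Stx11 was called in both experiments. Those called in experiment 2 were Ifng (193), Tbx21, a regulator of the cytotoxic program (29.9), Il2rb (14.7), the protease Ctsw (11.96), the granzyme B inhibitor Serpinb9 (6.62) and Stx11 (4.44). In experiment 1 they were Runx1 (6.30), Il2rb (5.26) and Stx11 (4.86), and Runx1 was itself changed by vectors of the study.

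By cell group, several of these genes were high in the clusters that carried Gzmc and Prf1. Nkg7, a granule membrane protein, was 1368 CPM in the Cd8b1 and Trac cluster, 548 and 779 CPM in the Klrk1 and Klrc1 cluster and 317 and 444 CPM in T-lineage-like cells. Ctsw was 182 CPM in the Cd8b1 and Trac cluster, 120.4 and 275 CPM in the Klrk1 and Klrc1 cluster and 6.21 and 16.1 CPM in T-lineage-like cells. Ifng was 340.3 CPM in the Cd8b1 and Trac cluster and 3.18 CPM in the Klrk1 and Klrc1 cluster of experiment 2. Runx3 was 73.8 CPM in the Cd8b1 and Trac cluster, 347 and 259 CPM in the Klrk1 and Klrc1 cluster and 184 and 115 CPM in T-lineage-like cells.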

How the data were processed

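Droplet single-cell RNA (10x Chromium v3, per the labels' protocols) and hashtag counts from 2 experiments were used, 4 samples in all. The deposited matrices hold raw counts of UMIs per gene and cell barcode. Reads were processed with Cell Ranger 3.0.0, with mm10 and GRCm38 as builds, per the submitters' processing notes; the annotation, the cell filter and the treatment of reads that fit several genes are not given in the sources used here. Of the gene IDs, 30934 matched the RefSeq-based gene table used for positions.

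From these counts, 9967 and 10556 barcodes were read, and 635 and 342 with under 500 genes or at least 10% mitochondrial UMIs were removed. A cell took a hashtag when its top tag had at least 50 counts and at least 3 times the second, which left 94.3% and 81.6% of cells; 535 and 1879 had no single tag. Doublets were treated by this tag rule, and Scrublet scores served as an alternative only. CPM is a gene's summed UMIs over all UMIs of the same cells, scaled to 1000000. Zero counts were read against a floor of 3 counts. Cells were clustered with scanpy 1.11.5 (2000 variable genes without the members, 30 components, 15 neighbours, resolution 0.5). A cluster was named when at least 3 markers of 1 class were among its 50 leading genes with no rival class, and clusters far under their sample's median depth, or led by rival classes, stayed unnamed or were called by leading genes. The rival rule and the leading-gene names were added after the clusters were seen. The T-lineage, early progenitor, granulocyte or monocyte, mast cell or basophil, dendritic, B-lineage and stromal lists each named a cluster in at least 1 experiment. The NK cell, other innate lymphoid and mature T cell lists had 4, 2 and 3 markers in the Cd8b1 and Trac cluster, the first 2 had 4 and 6 in the Klrk1 and Klrc1 cluster of experiment 1, and the erythroid list never had more than 1.

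For comparisons of detection, cells were thinned to 5000 UMIs, which left out 195 and 185 shallower cells. Genes named beside a member were its 3 most correlated genes at r of at least 0.3 and the 5 with the highest fold in its carriers (at least 20 carriers, 50 CPM and 10 UMIs elsewhere), of which some are printed. Intervals are exact Poisson, binomial or conditional ratio intervals from scipy 1.17.1. The ratio code was checked on simulated counts. Alternatives used edgeR 4.0.16 (TMM) and DESeq2 1.42.0 size factors for scaling, Seurat 5.3.0 HTODemux calls, other filters and leaving out each hashtag. The members, marker lists and granule list were chosen with earlier results of these data known. Tests between conditions were left out because no hashtag carries a condition.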

Additional observations from a re-analysis of the deposited data

Results flagged for a closer look

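Among the 8 hashtags of experiment 2, hashtag 4 stood far from the others for 4 members: Gzmb at 497 CPM, Gzmc at 453 CPM, Gzmd at 7.31 CPM and Gzme at 5.09 CPM. Its gap to the next hashtag, as a part of the spread of all 8, passed the 95% critical value of Dixon's test for each of the 4. By chance the test flags about 1 in 20 groups of normally spread replicates. The hashtags are unlabelled samples rather than replicates, so that rate is not known here. The 4 flags are not independent, since the hashtag 4 cells richest in Gzmd and Gzme were Cd8b1 and Trac cells with Gzmb and Gzmc UMIs too. The next values were 193 CPM for Gzmb, 18.3 CPM for Gzmc, 0.175 CPM for Gzmd and 0.630 CPM for Gzme. Of the Cd8b1 and Trac cells, which held 94.2% of Gzmc UMIs, hashtag 4 had 105 of 161.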

How the results depend on the processing

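No paired analysis was possible because the hashtags carry no condition or replicate number and the values come from no test. In experiment 1 the number of members whose highest hashtag was at least 4 times the lowest, 2 of 4 tested, was 1 with a stricter cell filter, 1 with cells thinned to 5000 UMIs and 0 with a minimum of 500 UMIs, under which Gzmc and Prf1 were not tested; leaving out 1 hashtag at a time gave 1 to 2, the lower without hashtag 5. In experiment 2 the 5 members became 3 when thinned, where 3 were tested, and 3 without the Cd8b1 and Trac and the Klrk1 and Klrc1 clusters, an alternative chosen after seeing the data, as was leaving out the richest cell of a hashtag. Leaving out hashtag 4 changed the ratio to 5.25 for Gzmb, 44.5 for Gzmc, 2.49 for Gzmd and 24.2 for Prf1, and leaving out hashtag 6 changed that of Gzma to 5.22. The 3 members higher in experiment 2 became 1 by a mean over cells, 1 thinned, 1 without the Cd8b1 and Trac cluster, 0 without both clusters, 1 without the 5 cells with the most UMIs and 5 with no minimum count. Leaving out 1 hashtag gave 1 to 3, the lower without hashtag 4 of experiment 2. The ratio of Prf1 between experiments turned to 0.717 without the Cd8b1 and Trac cluster and 0.668 without both clusters. The cause of changes not shown by the cells or genes left out was not tested. TMM and DESeq2 scaling shifted the median of experiment 2 against experiment 1 by 0.11 and 0.12 on the log2 scale and changed no count. Of the highest-to-lowest ratios recomputed under the alternatives, 66 in experiment 1 and 71 in experiment 2 stayed within the counting interval of the main value, and 18 and 39 moved outside it. Depth limits the values of Gzmd, Gzme, Gzmf and, in experiment 1, Gzmc and Prf1.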

Other observations

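Serpinb6b, an intracellular serine protease inhibitor, and Serpinb9, the inhibitor of granzyme B, were also followed by cell group. In the Cd8b1 and Trac cluster of experiment 2, Serpinb6b stood at 291 CPM and Serpinb9 at 128 CPM, against 39.4 and 11.6 CPM over all single cells of that experiment. Among early progenitor-like cells of experiment 2, Gzma in hashtags 1 to 8 was 107, 296, 616, 782, 299.6, 23.3, 598 and 24.7 CPM. Hashtags 6 and 8, the lowest, drew most of these cells from the cluster led by Egfl7 and Cox4i2.

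Barcodes with no single tag entered no comparison. The 535 of experiment 1 had 1157 CPM of Gzma and 101.4 CPM of Gzmb, and the 1879 of experiment 2 had 854 CPM of Gzma, 104 CPM of Gzmb, 53.9 CPM of Gzmc and 2.54 CPM of Prf1. None of the 7 members exceeded its highest hashtag there.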
